A study of Mus musculus with 17 samples.

Results

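The genes described here build and tension the actin cytoskeleton. They were 34 listed genes for calponins, actins, tropomyosins, myosins, filament cross-linkers, LIM-domain adaptors, membrane and adhesion linkers, the intermediate filament protein vimentin, and annexins with their S100 partners. Each was taken from the probe sets that carry 1 gene symbol, by the probe set with the brightest mean where a gene had several. All 34 were found among the 19937 genes measured, and all were matched to a mouse gene by Entrez number. Actin filaments are pulled by non-muscle myosin II, cross-linked by filamins and alpha-actinins, and tied through talin and vinculin to integrins and through ezrin and moesin to the membrane. In endothelial cells these proteins hold cells flat against the vessel wall and carry tension across junctions. In the embryonic aorta, haemogenic endothelial cells round up and leave the wall as blood cells emerge, a change of shape that involves the actin cytoskeleton.

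The 17 Affymetrix mouse gene arrays measured transcripts of cells from the aorta-gonad-mesonephros (AGM) region of E11.5 mouse embryos, where the first haematopoietic stem cells form. All cells were sorted as carrying CD31 and lacking CD45 and Ter119, from pools of AGM regions, and no genotype or strain is given for these pools in the labels. Kit- cells (endothelium) and Kit+ cells (haematopoietic precursors) were taken fresh, in 3 arrays each. For the other groups the sorted cells spent 2 h on OP9, a mouse bone marrow stromal line made to carry the Notch ligand Jag1 or Dll4, in medium with cytokines and serum, and were then sorted again by Kit. This gave 2 Kit-J, 3 Kit+J, 3 Kit-D and 3 Kit+D arrays, where J stands for OP9-Jag1 and D for OP9-Dll4. The fresh arrays came from an earlier series, so time on stroma and the set of arrays cannot be told apart in any comparison with the fresh groups, and no group was cultured on stroma without an added ligand. Values are deposited log2 values, on which a difference of 1 is a 2-fold change, and with 2 or 3 arrays a group the number of arrays limits the precision. In sorted bulk cells, fewer cells of a type and less RNA per cell cannot be told apart.

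Some arrays stood apart or had labels at odds. On both Kit-J arrays and on replicate 3 of Kit-D and of Kit+D, a description line named the other Kit population, and groups were taken from the titles. Kit itself read 8.29, 8.21 and 8.13 on fresh Kit- arrays against 9.55, 9.44 and 9.54 on Kit+ arrays, 9.08 and 8.50 on Kit-J against 9.93, 9.02 and 9.30 on Kit+J arrays, and 7.72, 7.05 and 8.02 on Kit-D against 8.98, 8.51 and 8.99 on Kit+D arrays. It rose from Kit- to Kit+ by 1.30 (SE 0.26, adjusted p = 0.00936) and from Kit-D to Kit+D by 1.24 (SE 0.26, adjusted p = 0.00633), whereas the Kit-J and Kit+J arrays overlapped and the gene was not called between them. Ptprc, the gene of CD45, read between 8.12 and 9.20 on the fresh arrays and between 4.16 and 5.54 on replicates 2 and 3 of both OP9-Dll4 groups, although the gate left out CD45 cells throughout. Pecam1, the gene of CD31, read 7.60 on Kit+D replicate 1 and 8.77 to 10.25 on the other arrays. Relative to the mean of Kit-, the 15 endothelial markers averaged -2.63 to -2.31 on Kit+ arrays, -2.07 and -1.72 for Kit-J, -2.83 to -2.50 for Kit+J, 0.15 to 0.64 for Kit-D and -2.56 to -1.55 for Kit+D. The 19 stromal and mural markers averaged -1.02 to -0.95 on Kit+ arrays, -0.79 and -0.58 for Kit-J, -1.12 to -0.52 on Kit+J arrays, -0.26 to 0.42 for Kit-D and -1.11 to -0.10 for Kit+D. The 16 myeloid markers stood at 1.61 on Kit+D replicate 1 against -1.29 and -1.74 on the other Kit+D arrays, and at 0.39, -1.65 and -1.71 for Kit-D. The 9 erythroid markers averaged -0.33 to 0.26 on Kit- arrays, -1.10 to -0.89 for Kit+, -1.01 and -0.80 for Kit-J, -1.52 to -1.22 for Kit+J, -0.63 to 0.41 for Kit-D and -0.28 to 0.85 for Kit+D, and the 15 germ cell markers ran from -2.16 to -0.76 over Kit-D arrays and from -1.81 to 1.89 over Kit+D arrays, against 0.77 to 1.58 over the Kit+, Kit-J and Kit+J arrays. The part of these cells in the differences between groups was not tested, and the counts are also given without 3 OP9-Dll4 arrays (replicate 3 of Kit-D, replicates 1 and 3 of Kit+D), a choice made after the values were seen.

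Several of these genes are known targets of serum response factor, which binds a motif called the CArG box. Upstream sequences were therefore read from RefSeq promoters (GRCm38.p6, 250 bases before to 50 after each start), which hold 31 of the 34 genes. Actg2, Marcks and S100a10 have no entry in that table. The CArG box was found in 5 of the 31 genes (16.1%), against 488 of all 27025 genes in the table (1.81%); the motif reads the same on both strands, so 1 search covers both. The windows of these 5 genes are shown with 30 bases on each side where the window allows, 5′ to 3′ on the gene's own strand, with the CArG box in capitals.
Cnn2, chr10:79988514-79988583, plus strand: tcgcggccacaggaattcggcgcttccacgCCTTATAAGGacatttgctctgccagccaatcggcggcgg
Actc1, chr2:114052883-114052952, minus strand: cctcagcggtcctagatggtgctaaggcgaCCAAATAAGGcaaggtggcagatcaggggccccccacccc
Myl9, chr2:156775273-156775342, plus strand: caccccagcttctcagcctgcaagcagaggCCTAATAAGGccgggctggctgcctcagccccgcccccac
Lima1, chr15:99820157-99820226, minus strand: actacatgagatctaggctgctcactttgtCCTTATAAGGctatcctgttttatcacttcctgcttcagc
Vcl, chr14:20929148-20929210, plus strand: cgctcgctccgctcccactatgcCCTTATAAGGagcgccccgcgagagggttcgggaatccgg
Counted from the start site, the box begins at position -56 in Cnn2, -47 in both Actc1 and Lima1, -161 in Myl9 and -227 in Vcl. The Lima1 window lies inside the annotated gene (chr15:99778468-99875477), at an internal start and not upstream of the whole gene. The same 10 letters stand in Cnn2, Lima1 and Vcl, and the boxes of Actc1 and Myl9 differ from them. Cnn2, Actc1 and Vcl passed the test in at least 1 comparison between groups, as described below, and Myl9 and Lima1 in none. Of all 34 genes 19 passed in at least 1. A match of letters is not a binding site, and no binding was measured.

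The 34 genes were highest as a group in Kit-D and lowest in Kit+. Kit-D held the highest group mean for 21 of them, Kit+D for 6, Kit- for 5 and Kit+J for 2. The lowest mean lay in Kit+ for 14, Kit-J for 7, Kit+J for 6, Kit+D for 4 and Kit- for 3. Relative to Kit-, the mean over the 34 genes was -0.96 to -0.87 on the Kit+ arrays, -0.79 and -0.50 for Kit-J, -0.82 to -0.60 for Kit+J, 0.26 to 0.73 for Kit-D and -0.38 to -0.14 for Kit+D. The Kit- arrays themselves ran from -0.06 to 0.11. All 34 genes lay above the median of all genes in at least 1 group. In a moderated F test over the 6 groups 23 of the 34 genes passed, where 16% of all genes did. In the 9 comparisons between pairs of groups 19 passed at least once, and the share of all genes doing so was not counted.

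**Figure D1:**
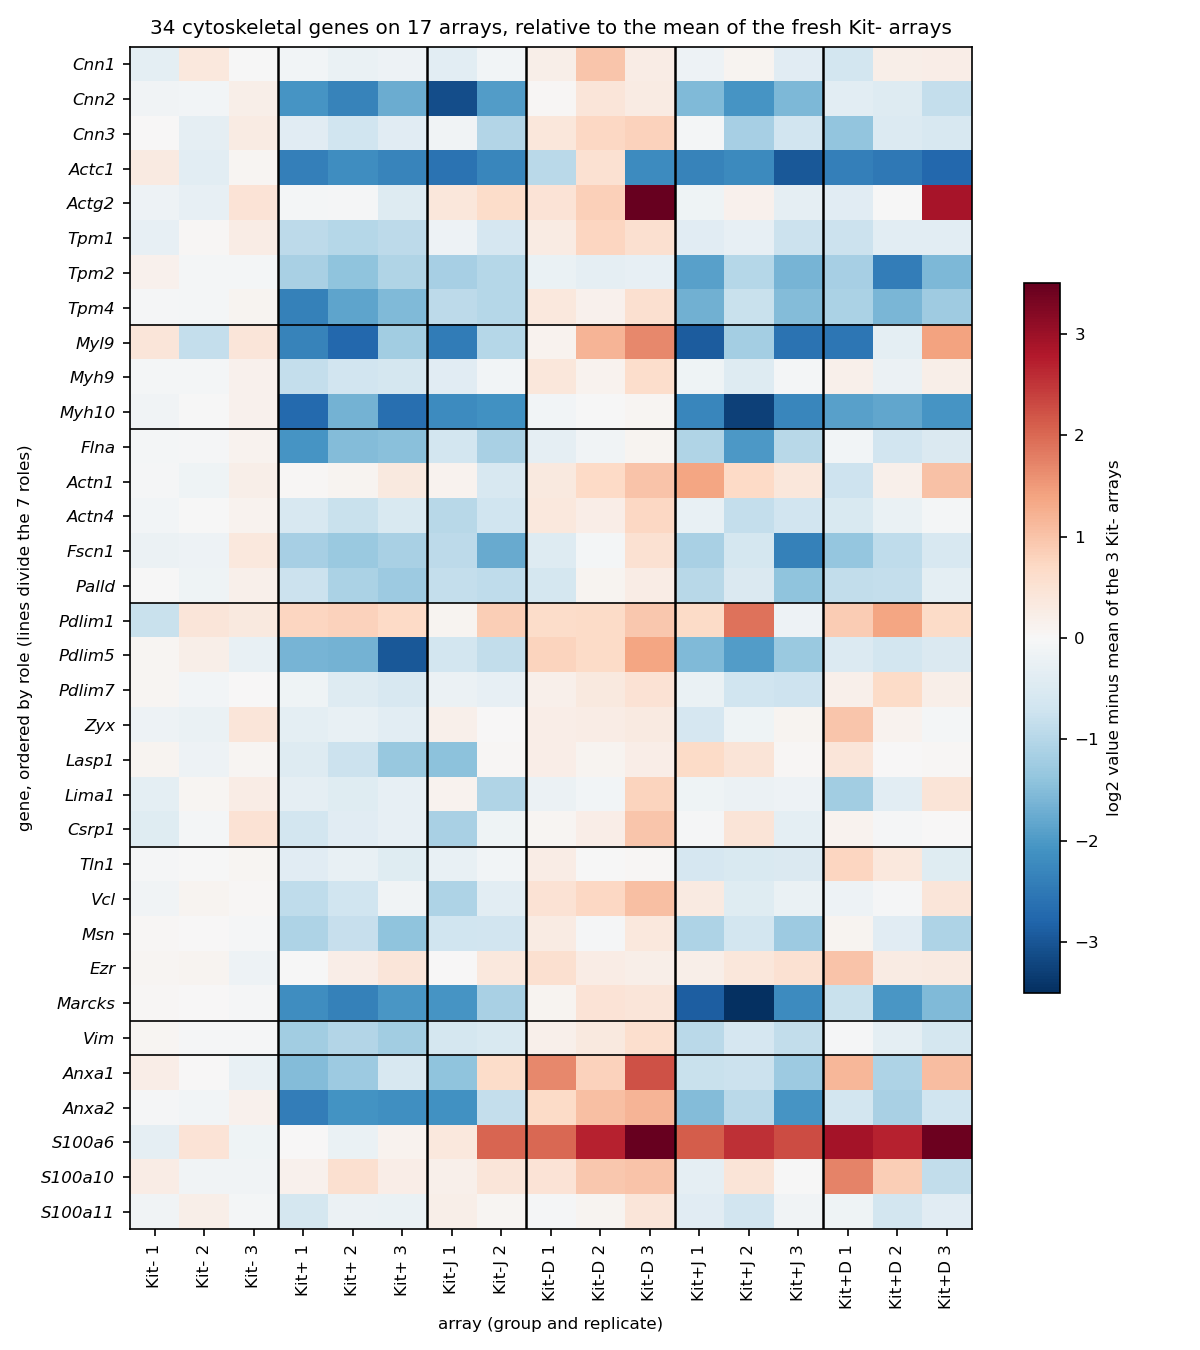
Log2 value of each of the 34 genes (rows, ordered by role) on each of the 17 arrays (columns), minus the mean of the 3 fresh Kit- arrays; blue is lower and red is higher. The Kit+, Kit-J and Kit+J columns are mostly blue, the Kit-D columns mostly red, and S100a6 is red on all cultured arrays, palest on Kit-J replicate 1.

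Fresh Kit+ cells had less of the contractile set than fresh Kit- cells, the comparison of precursors with endothelium. At an adjusted p under 0.05, 14 of the 34 genes fell and 0 rose, where 3.23% of all genes passed in either direction, 2.67% fell and 0.562% rose. The genes that fell were Myh10, Tpm4, Cnn2, Vim, Anxa2, Pdlim5, Marcks, Flna, Tpm1, Actc1, Tpm2, Msn, Myh9 and Palld. The median difference over the 34 genes was -0.78 on the log2 scale, against 0.06 over all genes, and 30 were lower in sign. In 24 genes every Kit+ array lay below every Kit- array, where 10.5% of all genes did, and in Pdlim1 the arrays lay apart the other way, where 16% did. In the same comparison 13 of 15 endothelial markers and 4 of 19 stromal and mural markers fell. Of the 9 erythroid markers 2 fell with them, the embryonic globins Hba-x (-3.95, adjusted p = 0.000396) and Hbb-y (-4.03, adjusted p = 0.000439). The median of that list was -0.03. Of the 15 germ cell markers, with a median of 1.12, Prdm14 rose by 1.96 (adjusted p = 0.0481). The part of these cells in the member calls was not tested. The count was 9 without Kit- replicate 1 and 9 without Kit- replicate 3.

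Kit- cells re-sorted after OP9-Jag1 also had lower levels than fresh Kit- cells. Of the 34 genes 6 fell (Cnn2, Myh10, Actc1, Anxa2, Marcks and Actn4) and 0 rose, where 2.14% of all genes passed, 1.89% fell and 0.251% rose. The median difference was -0.61, against 0.09 over all genes, and the arrays lay apart with Kit-J lower in 19 genes, where 12.8% of all genes did, and the other way in 0, where 19.7% did. Of the 15 endothelial markers 10 fell. Of the 9 erythroid markers 2 fell, Hba-x (-3.13, adjusted p = 0.0112) and Hbb-y (-2.79, adjusted p = 0.0277), while the median of that list was 0.08. Among the germ cell markers Prdm14 rose by 2.42 (adjusted p = 0.038). The part of these markers was not tested. Leaving out Kit- replicate 1, Kit- replicate 3 or Kit-J replicate 1 gave 2 calls, and leaving out Kit- replicate 2, Kit+ replicate 2 or Kit+ replicate 3 gave 3. Without Kit-J replicate 2 the count was 7; both Kit-J arrays carry the label at odds, and where 1 was left out the other was taken to vary like the other groups.

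After OP9-Dll4 most of the genes read higher than in fresh Kit- cells, by less than the test could call. S100a6 rose from Kit- to Kit-D and no other member passed, where 0.171% of all genes passed in either direction, 0.145% rose and 0.0251% fell. The median over the 34 genes was 0.36, against -0.02 over all genes, with 29 higher in sign. Kit-D arrays lay above all Kit- arrays in 16 genes, where 12.4% of all genes did, and below in 1, where 13.4% did. None of the 15 endothelial markers passed here. Ccr2 and Clec7a, 2 of 16 myeloid markers, were called lower (median of that list -0.96), and of the 15 germ cell markers 0 were called (median -1.50); their part was not tested. The count was 0 without any 1 of the 3 Kit- arrays and 0 without Kit-D replicate 3.

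In Kit- cells the set read lower after OP9-Jag1 than after OP9-Dll4, with the same time on stroma. All 34 genes were lower in sign with OP9-Jag1 than with OP9-Dll4 and 13 fell: Cnn2, Anxa2, Myh10, Actn4, Vim, Vcl, Marcks, Pdlim5, Tpm4, Tpm1, Cnn3, Myh9 and S100a6. Over all genes 9.37% passed, 6.07% fell and 3.3% rose. The median difference was -0.93, against 0.11 over all genes, and in 28 genes both Kit-J arrays lay below all Kit-D arrays, where 18.9% of all genes did, and in 0 above, where 28.9% did. Of the 15 endothelial markers 13 fell, as did 3 of 19 stromal and mural markers, 3 of 9 erythroid markers (Hba-x -3.19, Hbb-y -3.15 and Hbb-bh1 -3.60) and 1 of 9 megakaryocyte markers (Ppbp, -2.99), and of the 15 germ cell markers 8 rose. Their part in the member calls was not tested. Kit itself read higher in Kit-J cells than in Kit-D, by 1.195 (SE 0.29, adjusted p = 0.0202). Both Kit-J arrays and Kit-D replicate 3 carry the label at odds. Whether these arrays hold the Kit population of their titles was not tested. Leaving out the first Kit-J array gave 7 calls, the third Kit-D array 11, and the 3 OP9-Dll4 arrays named above together 11.

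In Kit+ cells 7 genes passed between fresh and OP9-Dll4 cells, 0 between fresh and OP9-Jag1 cells, and 3 between the stromas. Kit+J differed from Kit+ in 0 of the 34 genes by limma, where 0.0201% of all genes passed. An unadjusted p under 0.05 was found for 7 of the 34 genes and for 1330 of all 19937. The median was 0.10 against 0.00 over all genes. Arrays of Kit+J lay above those of Kit+ in 8 genes (5.67% of all genes) and below in 1 (6.06%), and 1 gene passed without either of the Kit-J arrays. From Kit+ to Kit+D, 7 genes rose (S100a6, Cnn2, Vim, Pdlim5, Flna, Myh9 and Anxa2) and 0 fell, where 1.42% of all genes passed, 1.04% rose and 0.381% fell; the median was 0.59 against -0.02, and the arrays lay apart upwards in 14 genes (10.1% of all genes) and downwards in 1 (12%). That count was 1 without Kit+ replicate 1 or Kit+D replicate 2, 2 without Kit+ replicate 2 or Kit+ replicate 3, and 1 without the 3 OP9-Dll4 arrays, which leaves 1 Kit+D array. In this comparison 2 of the 9 erythroid markers rose, Hba-x by 4.41 (adjusted p = 0.00282) and Hbb-y by 4.29 (adjusted p = 0.00346), with a list median of 0.47. Of the 15 endothelial markers Kdr rose by 1.44 (adjusted p = 0.0491), with a list median of 0.58. The part of these markers was not tested. Between the stromas 3 genes were lower in Kit+J cells than in Kit+D (Pdlim7, Cnn2 and Marcks), where 2.25% of all genes passed, 1.68% fell and 0.577% rose, with a median of -0.38 against 0.03 and arrays apart downwards in 8 genes (8.32% of all genes) and upwards in 0 (8.75%). In Kit+J cells 3 of the 15 endothelial markers (Tek, Emcn and Egfl7) were also lower than in Kit+D. So were 2 of the 9 erythroid markers, Hba-x (-4.55, adjusted p = 0.00145) and Hbb-y (-5.91, adjusted p = 0.000493), with a list median of -0.71. The part of these markers was not tested. Leaving out 1 array moved the member count between the stromas from 0 (Kit+J replicate 2) and 1 (Kit+J replicate 3, Kit+D replicate 1 or Kit+D replicate 2) to 7 (Kit+D replicate 3).

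Between the Kit gates after stroma, 11 genes were called on OP9-Dll4 and 0 on OP9-Jag1, where Kit-J has 2 arrays. Tested directly, the gate difference differed between the stromas in 0 of the 34 genes, where 1.98% of all genes passed. From Kit-D to Kit+D 11 genes fell (Tpm4, Myh10, Anxa2, Tpm1, Tpm2, Marcks, Pdlim5, Cnn3, Vim, Actn4 and Actc1) and 0 rose, where 13.1% of all genes passed, 6.62% fell and 6.5% rose, and the median was -0.67 against 0.05. Arrays lay apart downwards in 15 genes (14.3% of all genes) and upwards in 0 (17.7%). All 15 endothelial markers and 6 of 19 stromal and mural markers fell in this comparison and 5 of 15 germ cell markers rose, and their part was not tested. Same-numbered OP9-Dll4 arrays deviated together, and in a fit of these 6 arrays alone with the replicate number as a block 10 of the 34 genes and 1345 of all genes passed, against 2615 of all genes in the fit of all 17 arrays without a block, so that both the arrays kept and the block differ; Actc1 (adjusted p = 0.0857), Actn4 (adjusted p = 0.0659) and Vim (adjusted p = 0.127) missed the threshold there. The count was 6 without the 3 OP9-Dll4 arrays. Between Kit+J and Kit-J 0 genes passed by limma, where 0.0903% of all genes did (0.0552% higher and 0.0351% lower). An unadjusted p under 0.05 was found for 8 of the 34 genes and for 2133 of all 19937. Without Kit-J replicate 2 the count of calls was 2. The arrays lay apart upwards in 2 genes (10% of all genes) and downwards in 6 (9.97%). Each group enters 3 of the 9 comparisons, so the counts are not independent of each other.

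**Figure D2:**
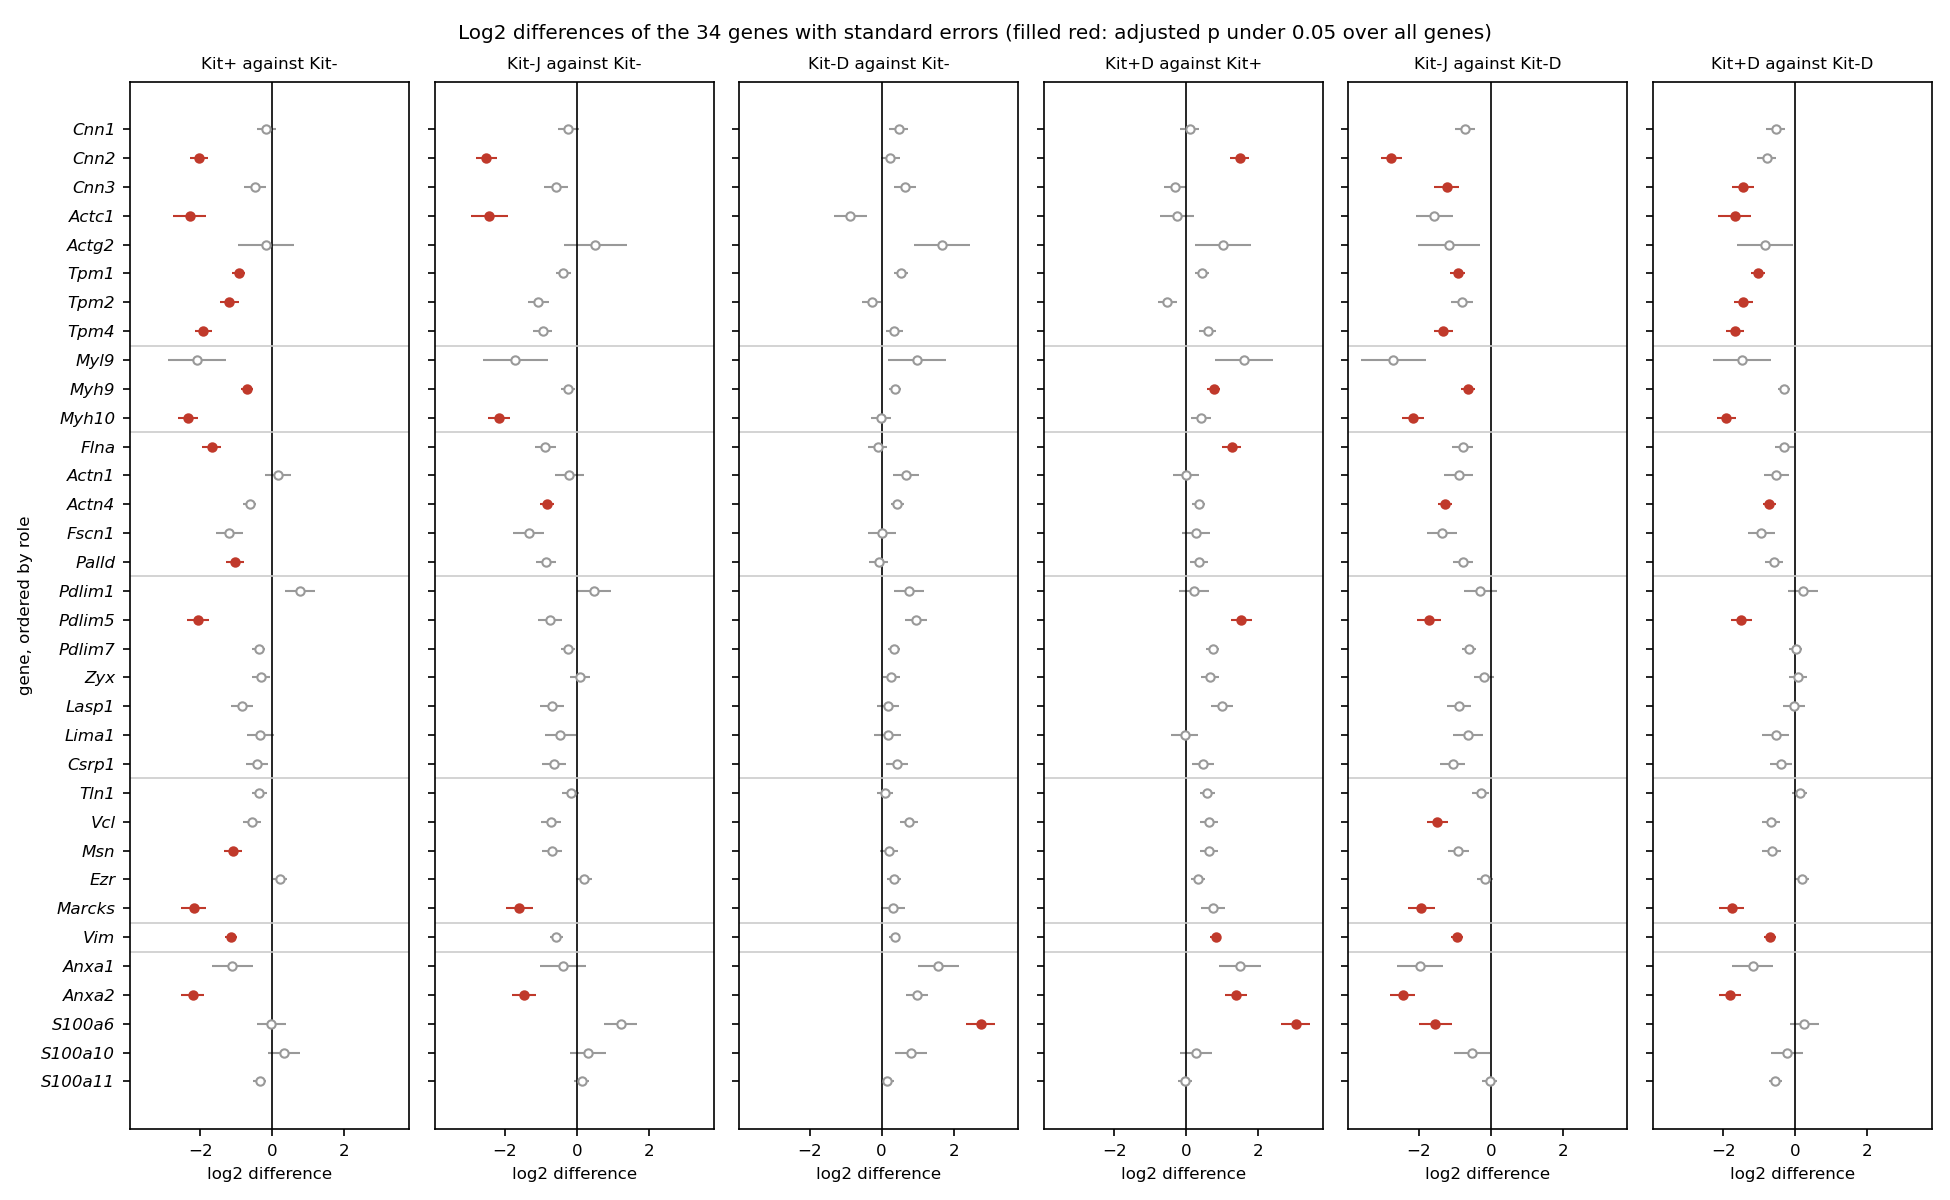
Log2 difference of each of the 34 genes (rows) in 6 comparisons (panels), with the standard error as a bar; filled red points passed an adjusted p under 0.05 over all 19937 genes. Red points lie left of 0 in the panels Kit+ against Kit-, Kit-J against Kit-, Kit-J against Kit-D and Kit+D against Kit-D (14, 6, 13 and 11 genes) and right of 0 in the other 2 panels (1 and 7 genes).

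Calponins bind actin and restrain myosin, and of the 3 listed Cnn2 passed in 5 comparisons, Cnn3 in 2 and Cnn1 in none. Cnn2 read 7.32, 7.34 and 7.65 on the fresh Kit- arrays and 5.38, 5.11 and 5.70 on the fresh Kit+ arrays. OP9-Jag1 arrays read 4.34 and 5.49 (Kit-J) and 5.89, 5.38 and 5.85 (Kit+J), and OP9-Dll4 arrays 7.46, 7.85 and 7.72 (Kit-D) and 7.06, 6.97 and 6.61 (Kit+D). The Kit- and Kit-D arrays lay highest, the Kit+D arrays between, and Kit+, Kit-J and Kit+J lowest. Cnn2 fell from Kit- to Kit+ (log2 difference -2.04, SE 0.26, adjusted p = 0.00022) and from Kit- to Kit-J (log2 difference -2.52, SE 0.29, adjusted p = 0.000348), and was lower in Kit-J cells than in Kit-D (log2 difference -2.76, SE 0.29, adjusted p = 6.79e-05). In these 3 comparisons it passed in all 17 fits that each left out 1 array. Cnn2 rose from Kit+ to Kit+D by 1.48 (SE 0.26, adjusted p = 0.0174) and was lower in Kit+J cells than in Kit+D (log2 difference -1.18, SE 0.26, adjusted p = 0.0314); the first call was lost without Kit+ replicate 1 or 2 or Kit+D replicate 2 (adjusted p up to 0.0749), and the second without Kit+J replicate 2 or 3 or Kit+D replicate 1 or 2 (up to 0.102).

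For Cnn3 the Kit- arrays read 8.49, 8.14 and 8.77, and after stroma 8.33 and 7.44 (Kit-J) and 8.86, 9.20 and 9.26 (Kit-D). The Kit+ arrays read 8.08, 7.78 and 8.08, and after stroma 8.40, 7.31 and 7.80 (Kit+J) and 7.09, 7.98 and 7.91 (Kit+D). The Kit-D arrays were the 3 highest of all 17. Cnn3 was lower in Kit-J cells than in Kit-D (log2 difference -1.22, SE 0.34, adjusted p = 0.0377) and fell from Kit-D to Kit+D (log2 difference -1.45, SE 0.30, adjusted p = 0.00655); the first call was lost without Kit- replicate 1, Kit-J replicate 2, Kit-D replicate 2 or Kit-D replicate 3 (adjusted p up to 0.199, with a difference of -0.78, without Kit-J replicate 2). Cnn1, the smooth muscle calponin, passed in no comparison, with group means from 4.87 in Kit-J to 5.58 in Kit-D.

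Actc1, cardiac alpha-actin, is a gene of the early heart and muscle, and passed in 3 comparisons. Log2 values of Actc1 were 8.52, 7.81 and 8.25 in Kit- and 5.81, 6.01 and 5.87 in Kit+. Values of the cultured cells were 7.24, 8.73 and 5.99 for Kit-D, 5.79, 5.70 and 5.44 for Kit+D, 5.60 and 5.91 for Kit-J and, for Kit+J, 5.86, 5.95 and 5.23. All fresh Kit- arrays and Kit-D replicates 1 and 2 read 7.24 or more, and every other array read 6.01 or less, Kit-D replicate 3 included. Actc1 fell from Kit- to Kit+ (log2 difference -2.29, SE 0.46, adjusted p = 0.00984), from Kit- to Kit-J (log2 difference -2.44, SE 0.52, adjusted p = 0.022) and from Kit-D to Kit+D (log2 difference -1.68, SE 0.46, adjusted p = 0.0265). Without Kit- replicate 1 the first missed the threshold (adjusted p = 0.0537), the second was lost without Kit- replicate 1, Kit- replicate 3 or Kit-J replicate 1 (up to 0.206), and the third was lost without Kit-D replicate 1, Kit-D replicate 2, Kit+D replicate 2 or Kit+D replicate 3 (up to 0.0842), its difference being -0.97 without Kit-D replicate 2.

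Actg2, the gamma-actin of smooth muscle, passed in no comparison. Fresh arrays gave Actg2 log2 values of 5.28, 5.18 and 5.94 for Kit- cells and 5.40, 5.43 and 5.005 for Kit+ cells. The Kit-J arrays read 5.86 and 6.10, those of Kit-D 5.94, 6.31 and 9.16, those of Kit+J 5.33, 5.62 and 5.15 and those of Kit+D 5.08, 5.45 and 8.35. Replicate 3 of both OP9-Dll4 groups stood apart, and the other 15 arrays read from 5.005 to 6.31. On those same arrays the smooth muscle actin Acta2 read 9.92 and 9.38 and the matrix gene Mgp 10.55 and 9.75. For both genes these were the highest values of all 17 arrays. Other genes of the same list of 19 stromal and mural markers read below all Kit- arrays there. Dcn read 4.43 and 4.24, Lum 2.99 and 3.47, and Postn 5.38 and 4.42. Relative to fresh Kit-, the whole list averaged 0.37 on Kit-D replicate 3 and -0.10 on Kit+D replicate 3. The part of these markers in the Actg2 values was not tested, and both arrays carry a label at odds.

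Tropomyosins lie along the actin filament and govern access of myosin to it, and all 3 listed passed in at least 2 comparisons. Tpm4 read 10.48, 10.44 and 10.61 on the fresh Kit- arrays and 8.15, 8.66 and 8.97 on the fresh Kit+ arrays. OP9-Jag1 arrays read 9.58 and 9.51 (Kit-J) and 8.83, 9.73 and 8.99 (Kit+J), and OP9-Dll4 arrays 10.87, 10.65 and 11.07 (Kit-D) and 9.41, 8.91 and 9.25 (Kit+D). Every Kit+, Kit-J, Kit+J and Kit+D array lay below every Kit- and Kit-D array. Tpm4 fell from Kit- to Kit+ (log2 difference -1.92, SE 0.24, adjusted p = 0.000182) and from Kit-D to Kit+D (log2 difference -1.67, SE 0.24, adjusted p = 0.000415), both in all 17 fits without 1 array, and was lower in Kit-J cells than in Kit-D (log2 difference -1.32, SE 0.27, adjusted p = 0.00754), which was lost without Kit-J replicate 1 (adjusted p = 0.0611).

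For Tpm1 the Kit- arrays read 9.12, 9.45 and 9.67, and after stroma 9.24 and 8.82 (Kit-J) and 9.70, 10.17 and 9.97 (Kit-D). The Kit+ arrays read 8.50, 8.43 and 8.50, and after stroma 9.01, 9.13 and 8.66 (Kit+J) and 8.66, 9.04 and 9.03 (Kit+D). The Kit+ arrays were the 3 lowest. Tpm1 fell from Kit- to Kit+ (log2 difference -0.94, SE 0.19, adjusted p = 0.00922) and from Kit-D to Kit+D (log2 difference -1.04, SE 0.19, adjusted p = 0.00231), and was lower in Kit-J cells than in Kit-D (log2 difference -0.92, SE 0.21, adjusted p = 0.0151). The first was lost without Kit- replicate 3 (adjusted p = 0.0578) and the last without Kit-J replicate 2 or Kit-D replicate 2 (up to 0.078). Log2 values of Tpm2 were 8.49, 8.28 and 8.28 in Kit- and 7.20, 6.96 and 7.31 in Kit+. Values of the cultured cells were 8.13, 8.04 and 8.05 for Kit-D, 7.19, 5.93 and 6.78 for Kit+D, 7.20 and 7.36 for Kit-J and, for Kit+J, 6.46, 7.35 and 6.74. All Kit- and Kit-D arrays read 8.04 or more and all other arrays 7.36 or less. Tpm2 fell from Kit- to Kit+ (log2 difference -1.19, SE 0.27, adjusted p = 0.021), which was lost without any 1 of the Kit- arrays, Kit+ replicate 1 or Kit+ replicate 2 (adjusted p up to 0.099), and from Kit-D to Kit+D (log2 difference -1.44, SE 0.27, adjusted p = 0.00278), which held in all 17 such fits.

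Myh10, the heavy chain of non-muscle myosin IIB, passed in 4 comparisons. Fresh arrays gave Myh10 log2 values of 9.03, 9.15 and 9.30 for Kit- cells and 6.44, 7.49 and 6.51 for Kit+ cells. The Kit-J arrays read 6.95 and 7.03, those of Kit-D 9.07, 9.16 and 9.22, those of Kit+J 6.89, 5.88 and 6.87 and those of Kit+D 7.26, 7.33 and 7.11. The 6 Kit- and Kit-D arrays read 9.03 or more and all other arrays 7.49 or less. Myh10 fell from Kit- to Kit+ (log2 difference -2.34, SE 0.27, adjusted p = 0.0001), from Kit- to Kit-J (log2 difference -2.17, SE 0.31, adjusted p = 0.00142) and from Kit-D to Kit+D (log2 difference -1.91, SE 0.27, adjusted p = 0.000421), and was lower in Kit-J cells than in Kit-D (log2 difference -2.15, SE 0.31, adjusted p = 0.0006). All 4 calls held in each of the 17 fits without 1 array.

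Myh9, the heavy chain of non-muscle myosin IIA, passed in 3 comparisons with a direction that in 2 of them depends on the probe set. Myh9 read 8.42, 8.42 and 8.67 on the fresh Kit- arrays and 7.67, 7.85 and 7.88 on the fresh Kit+ arrays. OP9-Jag1 arrays read 8.10 and 8.40 (Kit-J) and 8.36, 8.05 and 8.43 (Kit+J), and OP9-Dll4 arrays 8.91, 8.63 and 9.12 (Kit-D) and 8.67, 8.31 and 8.70 (Kit+D). The Kit+ arrays were the 3 lowest. By this probe set Myh9 fell from Kit- to Kit+ (log2 difference -0.70, SE 0.17, adjusted p = 0.0312), rose from Kit+ to Kit+D by 0.76 (SE 0.17, adjusted p = 0.0411) and was lower in Kit-J cells than in Kit-D (log2 difference -0.64, SE 0.19, adjusted p = 0.0461). The other probe set of the gene read 6.24, 6.004 and 4.94 in Kit- and 8.10, 7.03 and 6.997 in Kit+, and with the mean of both the differences were 0.47 (adjusted p = 0.652) from Kit- to Kit+ and -0.23 (adjusted p = 0.79) from Kit+ to Kit+D, the opposite direction. The calls were lost in 6, 10 and 10 of the 17 fits without 1 array. The calls from Kit- to Kit+ and from Kit+ to Kit+D were lost in every fit that left out any array of the 2 groups compared. The difference between Kit-J and Kit-D stood at -0.49 without Kit-J replicate 1.

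Myl9, the regulatory light chain that is phosphorylated when the cell contracts, was past the F test and past no comparison. For Myl9 the Kit- arrays read 8.70, 7.44 and 8.69, and after stroma 5.84 and 7.29 (Kit-J) and 8.40, 9.46 and 9.95 (Kit-D). The Kit+ arrays read 5.95, 5.54 and 7.07, and after stroma 5.38, 7.09 and 5.70 (Kit+J) and 5.76, 7.92 and 9.69 (Kit+D). Kit-D replicates 2 and 3 and Kit+D replicate 3 were the highest, and the Kit+D arrays ran from 5.76 to 9.69. Its smallest adjusted p came from Kit-J against Kit-D, at -2.71 (SE 0.90, adjusted p = 0.07).

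**Figure D3:**
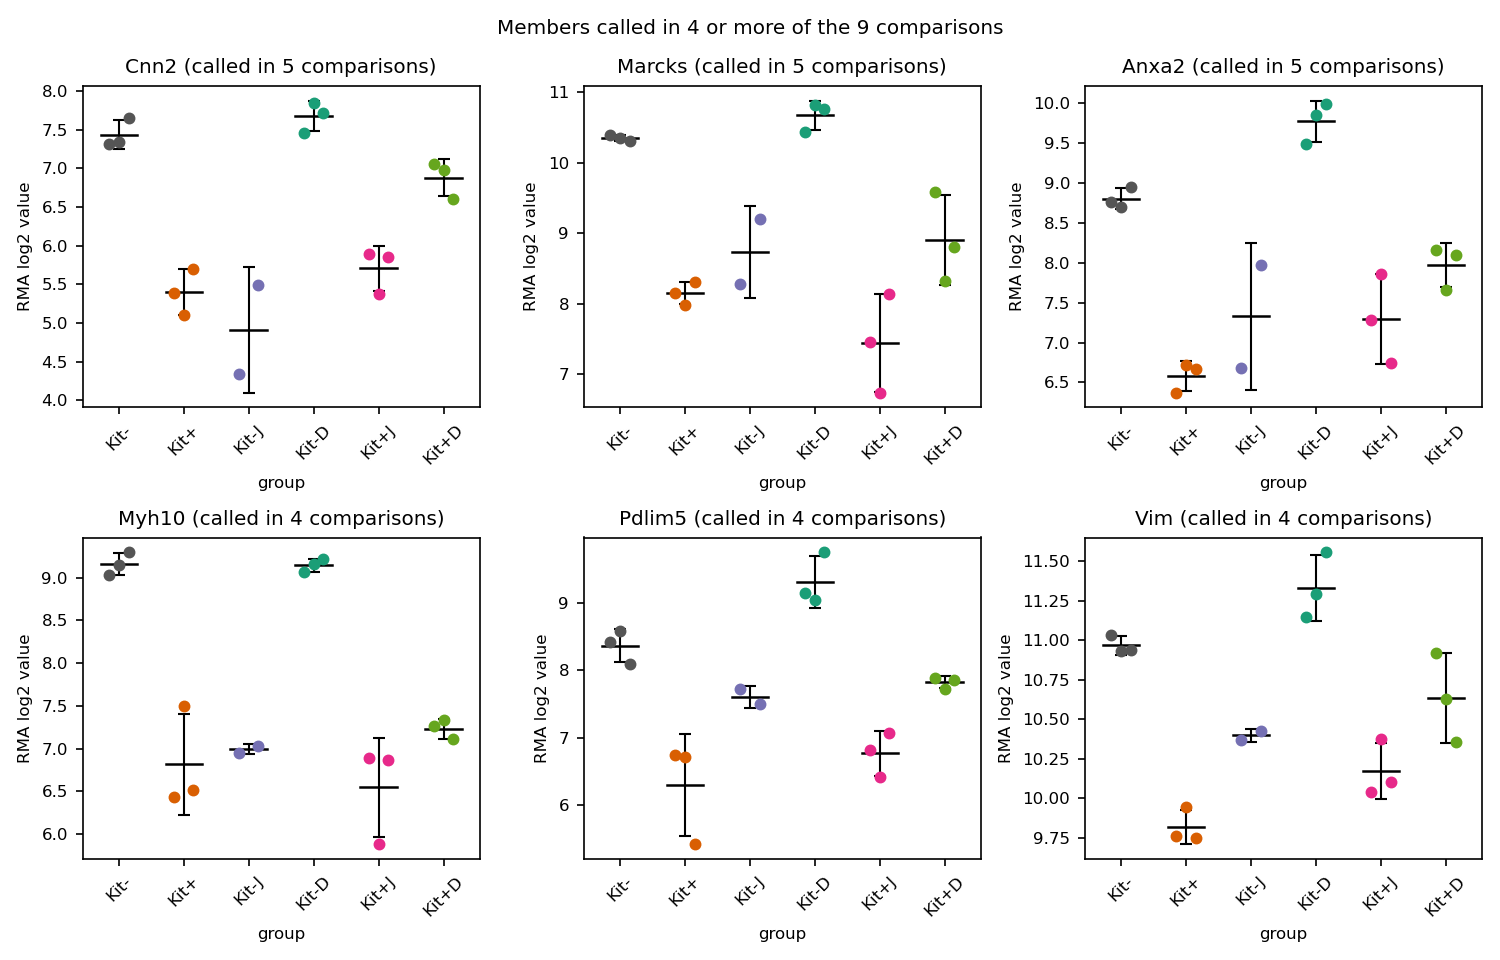
RMA log2 value of the 6 genes that passed in 4 or 5 of the 9 comparisons (Cnn2, Marcks, Anxa2, Myh10, Pdlim5 and Vim) on each array, by group; points are arrays, horizontal lines group means and bars 1 SD over 2 or 3 arrays. In each panel Kit- and Kit-D lie highest, and for Myh10 no array of another group reaches 8.

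Among cross-linkers, Flna, the filamin that joins actin filaments into networks, passed in 2 comparisons. Log2 values of Flna were 8.83, 8.85 and 9.03 in Kit- and 6.83, 7.39 and 7.43 in Kit+. Values of the cultured cells were 8.60, 8.77 and 9.001 for Kit-D, 8.82, 8.24 and 8.40 for Kit+D, 8.27 and 7.76 for Kit-J and, for Kit+J, 7.85, 6.88 and 7.94. The Kit+ arrays and Kit+J replicate 2 were the lowest, and the Kit+D arrays lay above all Kit+ arrays. Flna fell from Kit- to Kit+ (log2 difference -1.69, SE 0.26, adjusted p = 0.00134), in all 17 fits without 1 array, and rose from Kit+ to Kit+D by 1.27 (SE 0.26, adjusted p = 0.0336), which was lost without any 1 Kit+ array, Kit+D replicate 1 or Kit+D replicate 2 (adjusted p up to 0.125).

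Actn4, an alpha-actinin that cross-links filaments, passed in 3 comparisons. Fresh arrays gave Actn4 log2 values of 9.34, 9.43 and 9.57 for Kit- cells and 8.89, 8.66 and 8.90 for Kit+ cells. The Kit-J arrays read 8.47 and 8.75, those of Kit-D 9.81, 9.68 and 10.17, those of Kit+J 9.17, 8.60 and 8.76 and those of Kit+D 8.91, 9.21 and 9.38. The Kit-D arrays were the 3 highest and Kit-J replicate 1 the lowest. Actn4 was lower in Kit-J cells than in Kit-D (log2 difference -1.27, SE 0.20, adjusted p = 0.00144), in all 17 fits without 1 array. It fell from Kit- to Kit-J (log2 difference -0.83, SE 0.20, adjusted p = 0.0481), a call lost in 11 of those fits (adjusted p up to 0.406 without Kit-J replicate 1), and from Kit-D to Kit+D (log2 difference -0.72, SE 0.18, adjusted p = 0.0175), lost without Kit-D replicate 3 or Kit+D replicate 1 (up to 0.0874).

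Palld, a scaffold of stress fibres, passed once. Palld read 6.37, 6.22 and 6.56 on the fresh Kit- arrays and 5.62, 5.26 and 5.12 on the fresh Kit+ arrays. OP9-Jag1 arrays read 5.56 and 5.49 (Kit-J) and 5.42, 5.87 and 4.98 (Kit+J), and OP9-Dll4 arrays 5.76, 6.48 and 6.65 (Kit-D) and 5.51, 5.55 and 6.03 (Kit+D). All Kit+ arrays lay below all Kit- arrays. Palld fell from Kit- to Kit+ (log2 difference -1.05, SE 0.25, adjusted p = 0.034), which was lost without any 1 Kit- array, Kit+ replicate 2 or Kit+ replicate 3 (adjusted p up to 0.148). Actn1, the other alpha-actinin, and Fscn1, which bundles filaments in cell protrusions, passed in no comparison; Fscn1 had group means from 7.73 in Kit+J to 9.11 in Kit-D, and its smallest adjusted p was 0.0596 (Kit-J against Kit-D, -1.35).

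The LIM and PDZ-LIM adaptors, which dock at alpha-actinin, stress fibres and focal adhesions, gave few calls outside Pdlim5. For Pdlim5 the Kit- arrays read 8.43, 8.58 and 8.10, and after stroma 7.73 and 7.50 (Kit-J) and 9.16, 9.04 and 9.76 (Kit-D). The Kit+ arrays read 6.74, 6.72 and 5.41, and after stroma 6.82, 6.41 and 7.07 (Kit+J) and 7.89, 7.73 and 7.86 (Kit+D). The Kit-D arrays lay highest, the Kit- arrays next and the Kit+ and Kit+J arrays lowest. Pdlim5 fell from Kit- to Kit+ (log2 difference -2.08, SE 0.30, adjusted p = 0.000763) and from Kit-D to Kit+D (log2 difference -1.49, SE 0.30, adjusted p = 0.00529), was lower in Kit-J cells than in Kit-D (log2 difference -1.71, SE 0.34, adjusted p = 0.00677), and rose from Kit+ to Kit+D by 1.54 (SE 0.30, adjusted p = 0.0274). The first 3 calls held in all 17 fits without 1 array and the last was lost without Kit+ replicate 1, Kit+ replicate 3 or Kit+D replicate 2 (adjusted p up to 0.0789).

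Log2 values of Pdlim7 were 7.39, 7.24 and 7.35 in Kit- and 7.18, 6.88 and 6.76 in Kit+. Values of the cultured cells were 7.50, 7.68 and 7.84 for Kit-D, 7.51, 8.01 and 7.52 for Kit+D, 7.11 and 7.03 for Kit-J and, for Kit+J, 7.10, 6.63 and 6.61. The Kit+D arrays lay above all Kit+J arrays. Pdlim7 was lower in Kit+J cells than in Kit+D (log2 difference -0.90, SE 0.18, adjusted p = 0.0194), a call lost without Kit+J replicate 2, Kit+J replicate 3 or Kit+D replicate 2 (adjusted p up to 0.0789). Pdlim1, Zyx, Lasp1, Lima1 and Csrp1 passed in no comparison. Zyx, the focal adhesion protein zyxin, had group means from 7.93 in Kit+ to 8.59 in Kit+D. Lasp1 passed the F test (adjusted p = 0.0442), with group means from 7.67 in Kit+ to 8.90 in Kit+J.

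Among the linkers, Marcks, a kinase substrate that ties actin to the plasma membrane, passed as often as Cnn2 and Anxa2. Fresh arrays gave Marcks log2 values of 10.39, 10.34 and 10.30 for Kit- cells and 8.16, 7.99 and 8.31 for Kit+ cells. The Kit-J arrays read 8.28 and 9.20, those of Kit-D 10.43, 10.82 and 10.75, those of Kit+J 7.45, 6.74 and 8.14 and those of Kit+D 9.58, 8.32 and 8.80. The Kit- and Kit-D arrays read 10.30 or more and all other arrays 9.58 or less. Marcks fell from Kit- to Kit+ (log2 difference -2.19, SE 0.34, adjusted p = 0.00127) and from Kit-D to Kit+D (log2 difference -1.77, SE 0.34, adjusted p = 0.00363), both in all 17 fits without 1 array. It fell from Kit- to Kit-J (log2 difference -1.60, SE 0.38, adjusted p = 0.0404), lost in 11 of those fits (adjusted p up to 0.476 and a difference of -1.14 without Kit-J replicate 1), was lower in Kit-J cells than in Kit-D (log2 difference -1.93, SE 0.38, adjusted p = 0.00639), lost without Kit-J replicate 1 (adjusted p = 0.131), and was lower in Kit+J cells than in Kit+D (log2 difference -1.46, SE 0.34, adjusted p = 0.039), lost in 12 (up to 0.124 without Kit+J replicate 2).

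Vinculin (Vcl), which reinforces adhesions under tension, and moesin (Msn), which ties actin to the membrane, passed once each. Vcl read 8.40, 8.62 and 8.59 on the fresh Kit- arrays and 7.64, 7.85 and 8.41 on the fresh Kit+ arrays. OP9-Jag1 arrays read 7.46 and 8.16 (Kit-J) and 8.84, 8.11 and 8.31 (Kit+J), and OP9-Dll4 arrays 9.03, 9.26 and 9.58 (Kit-D) and 8.37, 8.49 and 8.96 (Kit+D). The Kit-D arrays were the 3 highest. Vcl was lower in Kit-J cells than in Kit-D (log2 difference -1.48, SE 0.29, adjusted p = 0.00547), lost without Kit-J replicate 1 (adjusted p = 0.116). For Msn the Kit- arrays read 10.60, 10.56 and 10.51, and after stroma 9.85 and 9.88 (Kit-J) and 10.84, 10.51 and 10.93 (Kit-D). The Kit+ arrays read 9.47, 9.76 and 9.16, and after stroma 9.47, 9.91 and 9.29 (Kit+J) and 10.66, 10.17 and 9.47 (Kit+D). All Kit+ arrays lay below all Kit- arrays. Msn fell from Kit- to Kit+ (log2 difference -1.10, SE 0.25, adjusted p = 0.0256), lost without any 1 Kit- array, Kit+ replicate 1 or Kit+ replicate 3 (adjusted p up to 0.132). Tln1, the talin that couples integrins to actin, and Ezr, ezrin, passed in no comparison; Ezr had the narrowest range of group means of the genes that never passed, 7.30 in Kit- to 7.83 in Kit+D.

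Vimentin (Vim), the intermediate filament of endothelial and mesenchymal cells, passed in 4 comparisons. Log2 values of Vim were 11.04, 10.93 and 10.94 in Kit- and 9.76, 9.94 and 9.75 in Kit+. Values of the cultured cells were 11.15, 11.30 and 11.56 for Kit-D, 10.92, 10.63 and 10.35 for Kit+D, 10.37 and 10.43 for Kit-J and, for Kit+J, 10.04, 10.38 and 10.10. The Kit+ arrays were the 3 lowest and the Kit-D arrays the 3 highest. Vim fell from Kit- to Kit+ (log2 difference -1.15, SE 0.16, adjusted p = 0.000461), in all 17 fits without 1 array, and from Kit-D to Kit+D (log2 difference -0.70, SE 0.16, adjusted p = 0.00982), lost without Kit-D replicate 3 (adjusted p = 0.0529). It was lower in Kit-J cells than in Kit-D (log2 difference -0.94, SE 0.18, adjusted p = 0.00488), lost without Kit-J replicate 1 (adjusted p = 0.0553), and rose from Kit+ to Kit+D by 0.82 (SE 0.16, adjusted p = 0.0254), lost without any 1 Kit+ array or Kit+D replicate 2 (up to 0.09).

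Anxa2, a calcium-dependent protein that binds membranes and actin, passed in 5 comparisons. Fresh arrays gave Anxa2 log2 values of 8.76, 8.70 and 8.95 for Kit- cells and 6.37, 6.71 and 6.66 for Kit+ cells. The Kit-J arrays read 6.68 and 7.98, those of Kit-D 9.49, 9.85 and 9.99, those of Kit+J 7.29, 7.86 and 6.74 and those of Kit+D 8.16, 7.66 and 8.09. The Kit-D arrays were the 3 highest, above all Kit- arrays, and the Kit+ arrays, Kit-J replicate 1 and Kit+J replicate 3 read 6.74 or less. Anxa2 fell from Kit- to Kit+ (log2 difference -2.22, SE 0.31, adjusted p = 0.000464) and from Kit-D to Kit+D (log2 difference -1.80, SE 0.31, adjusted p = 0.00153), and was lower in Kit-J cells than in Kit-D (log2 difference -2.45, SE 0.34, adjusted p = 0.000536), all 3 in every fit without 1 array. It fell from Kit- to Kit-J (log2 difference -1.47, SE 0.34, adjusted p = 0.037), which was lost in 6 of the 17 fits and stood at -0.82 without Kit-J replicate 1. Anxa2 rose from Kit+ to Kit+D by 1.39 (SE 0.31, adjusted p = 0.0416). That call was lost in 13 fits (adjusted p up to 0.138 without Kit+ replicate 1), among them every fit without 1 of the Kit+ or Kit+D arrays. Anxa1 passed the F test (adjusted p = 0.0317) and no comparison, with group means from 5.52 in Kit+ to 8.20 in Kit-D.

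S100a6, the small calcium-binding protein calcyclin, was the 1 member that rose in both Kit gates after OP9-Dll4. S100a6 read 6.68, 7.47 and 6.83 on the fresh Kit- arrays and 7.001, 6.76 and 7.12 on the fresh Kit+ arrays. OP9-Jag1 arrays read 7.37 and 9.04 (Kit-J) and 9.12, 9.55 and 9.27 (Kit+J), and OP9-Dll4 arrays 8.99, 9.69 and 10.55 (Kit-D) and 9.91, 9.67 and 10.42 (Kit+D). The 6 fresh arrays read 7.47 or less, Kit-J replicate 1 lay among them, and the other 10 cultured arrays read 8.99 or more. S100a6 rose from Kit- to Kit-D by 2.75 (SE 0.40, adjusted p = 0.0192) and from Kit+ to Kit+D by 3.04 (SE 0.40, adjusted p = 0.00381). The first was lost without any 1 Kit- array or Kit-D replicate 3 (adjusted p up to 0.0931) and the second held in all 17 fits without 1 array. From Kit+ to Kit+J the difference was 2.35 (SE 0.40, adjusted p = 0.0835) and the arrays did not overlap. S100a6 was lower in Kit-J cells than in Kit-D (log2 difference -1.54, SE 0.45, adjusted p = 0.0461), but the arrays overlapped, and without Kit-J replicate 1 the difference was -0.71 (adjusted p = 0.568). Between the fresh populations it was -0.03 (SE 0.40, adjusted p = 0.985). S100a10, the partner of annexin A2, and S100a11, the partner of annexin A1, passed in no comparison.

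**Figure D4:**
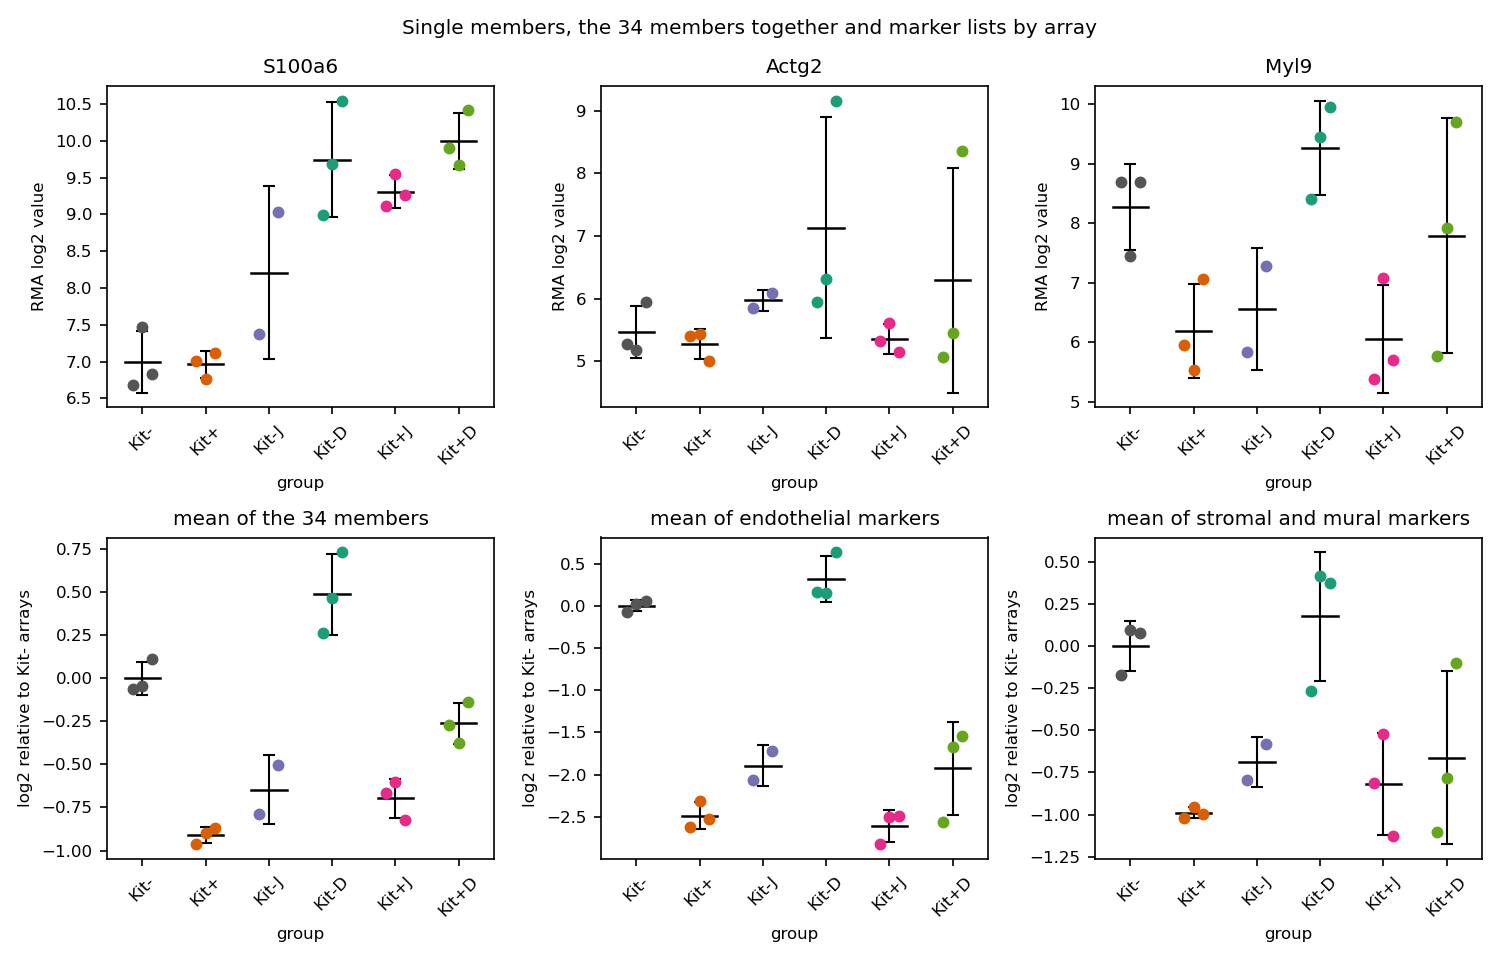
Upper row: RMA log2 values of S100a6, Actg2 and Myl9 by group. Lower row: mean of the 34 genes, of 15 endothelial markers and of 19 stromal and mural markers, relative to the fresh Kit- arrays; points are arrays, lines means and bars 1 SD. Actg2 is high on 1 Kit-D and 1 Kit+D array (9.16 and 8.35), and the mean of the 34 genes and that of the endothelial markers are both highest in Kit-D.

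Whether a difference itself differed between the Kit gates was tested in the same fit. The change on OP9-Jag1 differed in Cnn2 and Anxa2, where 0.582% of all genes passed (0.557% with the lower sign, 0.0251% with the higher). Cnn2 differed by -2.52 between Kit-J and fresh Kit- cells and by 0.31 between Kit+J and fresh Kit+ cells, a difference of -2.83 (SE 0.39, adjusted p = 0.00401) that held in all 17 fits without 1 array. Anxa2 was -1.47 and 0.71, a difference of -2.19 (SE 0.46, adjusted p = 0.0469), which was lost in 14 of those fits (up to 0.253 without Kit-J replicate 1). The median over the 34 genes was -0.87, against 0.07 over all genes. The change on OP9-Jag1 also differed in 3 of the 15 endothelial markers, Kdr (-4.09), Tek (-2.07) and Flt1 (-2.60), with a median of -1.61 over that list, whose part was not tested. For Kit-J against Kit-D set beside Kit+J against Kit+D, 0 genes passed by limma, where 1.98% of all genes did (1.36% lower, 0.622% higher), and 13 had an unadjusted p under 0.05 (4 passed without Kit-J replicate 2, while leaving out Kit+J replicate 2 or Kit+D replicate 3 gave 2, and 1 passed without Kit+ replicate 2 or Kit+J replicate 3); the same quantity compares the Kit gates between the stromas. For the change on OP9-Dll4 0 genes passed, where 0% of all genes did. An unadjusted p under 0.05 was found for 3 of the 34 genes and for 1790 of all 19937.

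Other genes of the pathway were taken from lists and are given by their counts. Of 32 measured genes of actin assembly and turnover, 1 fell from Kit- to Kit+ (2.67% of all genes), 1 from Kit- to Kit-J (1.89%) and 4 were lower in Kit-J cells than in Kit-D (6.07%); the fallen gene in the first pair of comparisons was Pfn2, a profilin, at -0.97 (SE 0.21, adjusted p = 0.0146) and -1.10 (SE 0.23, adjusted p = 0.0211). From Kit-D to Kit+D 8 of them fell (6.62% of all genes) and 1 rose (6.5%), Arpc1b, an Arp2/3 subunit, at 0.81 (SE 0.19, adjusted p = 0.0123). The median of this list from Kit- to Kit+ was -0.31, against -0.78 for the 34 genes and 0.06 for all genes.

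Of 36 measured other contractile, adhesion and linker genes, 8 fell from Kit- to Kit+ (2.67% of all genes), 4 from Kit- to Kit-J (1.89%) and 12 from Kit-D to Kit+D (6.62%). There were 13 lower in Kit-J cells than in Kit-D (6.07% of all genes) and 2 in Kit+J cells than in Kit+D (1.68%), and 3 rose from Kit+ to Kit+D (1.04%). Caldesmon (Cald1), which restrains actin and myosin sliding, read 9.33, 9.57 and 9.49 in Kit-, 6.02, 5.97 and 6.03 in Kit+ and 6.81 and 7.53 in Kit-J, differences of -3.46 (SE 0.46, adjusted p = 0.000302) and -2.29 (SE 0.51, adjusted p = 0.029). Lpp, a zyxin relative at adhesions, was -2.80 (SE 0.43, adjusted p = 0.00121) and -2.87 (SE 0.48, adjusted p = 0.00489). Of the 12 other annexin and S100 genes 4 fell from Kit- to Kit+ and 3 from Kit- to Kit-J, against the same 2.67% and 1.89% of all genes; S100a16 was -3.39 (SE 0.38, adjusted p = 7.47e-05) and -2.39 (SE 0.43, adjusted p = 0.00734), and Anxa3 -2.94 (SE 0.36, adjusted p = 0.000158) and -2.53 (SE 0.40, adjusted p = 0.00323). Of 14 serum response and early genes, 2 fell from Kit- to Kit+ (2.67% of all genes), 2 from Kit- to Kit-J (1.89%), 1 from Kit+ to Kit+J (0.0201%) and 6 from Kit-D to Kit+D (6.62%), and 0 rose in these 4 comparisons. Of the same 14 genes 6 were lower in Kit-J cells than in Kit-D (6.07% of all genes) and 2 in Kit+J cells than in Kit+D (1.68%), with 0 higher. Jun, a subunit of AP-1, fell on OP9-Jag1 in both gates, at -1.10 (SE 0.18, adjusted p = 0.00469) from Kit- and -1.39 (SE 0.16, adjusted p = 0.0101) from Kit+, and Fosb, another AP-1 subunit, fell from Kit- to Kit-J, at -1.67 (SE 0.40, adjusted p = 0.0434).

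The 15 genes that passed in no comparison between groups were Cnn1, Actg2, Myl9, Actn1, Fscn1, Pdlim1, Zyx, Lasp1, Lima1, Csrp1, Tln1, Ezr, Anxa1, S100a10 and S100a11. Their group means ranged over 0.53 (Ezr) to 3.22 (Myl9) on the log2 scale, and 4 of them (Myl9, Fscn1, Lasp1 and Anxa1) passed the F test. Pdlim1, Lima1, Ezr and S100a10 had no comparison with an unadjusted p under 0.05. With 2 or 3 arrays a group, differences within the spread of the arrays were not detectable, and these genes are not shown to be equal between groups.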

How the data were processed

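Values were the deposited log2 expression values of the series' table, which the authors made from Mouse Gene 1.0 ST arrays by RMA (background correction, quantile normalization and summary of probes; version not given in the sources used here). RMA pulls small differences at the low end together, so differences of dim genes are understated. Single-symbol probe sets were reduced to the brightest per gene, leaving 19937 genes from 21640 probe sets; 1321 with several symbols and 11799 with none were left out. Groups came from sample titles. All 17 arrays were fitted with 6 group means in limma 3.58.1 (R 4.3.3), with empirical Bayes moderation and Benjamini-Hochberg adjustment over all genes; an adjusted p under 0.05 was the call, for 9 pairwise comparisons, 3 differences of differences and a moderated F test. The number of arrays limits the precision. Replicates of a cultured group came from separate sorts, so for these groups the p-values rest on the spread between pools. The paper's methods describe Kit- and Kit+ cells as recovered from each culture, and the main fit treated all arrays as independent.

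OP9-Dll4 arrays of the 2 gates that share a number deviated in parallel over all genes (correlations of 0.462, 0.179 and 0.289, with numbers from the titles). The main fit held no block, so its p-values for Kit+D against Kit-D leave this pairing out. The pairing entered only in fits with the replicate number as a block. Same-numbered fresh arrays (0.006 to 0.065) and OP9-Jag1 arrays (-0.114 and -0.263) did not deviate in parallel. The members and all lists were chosen with earlier results of these data known. Array values are printed for members called in at least 1 pairwise comparison, and for Actg2 and Myl9, chosen after their values were seen; of other pathway lists, genes among the 4 called with the smallest adjusted p are named, with array values for Cald1 alone. Alternatives were fits of only the groups compared, a log2 difference of at least 1, removal of dim genes, array weights, scaling to 8 housekeeping genes, averaging of all probe sets of a gene, a robust prior with a variance trend, quantile normalization run again, the replicate number as a block, and leaving out each array. Results of 1 other gene list are not reported here. Promoters were scanned in Python 3.11.15 and plots drawn with matplotlib 3.10.9.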

Additional observations from a re-analysis of the deposited data

Results flagged for a closer look

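The change on OP9-Jag1 differed between the Kit gates in a test of the difference itself for Cnn2 and Anxa2. For Cnn2 the difference between the Kit-J against Kit- and the Kit+J against Kit+ changes was -2.83 on the log2 scale, and for Anxa2 it was -2.19. Both Kit-J arrays lay below all Kit- arrays for each gene; the Kit+J arrays lay above all Kit+ arrays for Anxa2 and overlapped them for Cnn2. Cnn2 kept its call without any 1 array, while Anxa2 lost its call in 14 of 17 such fits. In the same test 3 of 15 endothelial markers differed (Kdr -4.09, Tek -2.07 and Flt1 -2.60), and their part was not tested. The fresh arrays of both gates come from another array set than the cultured ones.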

How the results depend on the processing

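Of 57 calls of single genes, 22 passed under every setting tried. The direction turned only for Myh9 with the mean of its probe sets, to 0.47 from Kit- to Kit+ and -0.23 from Kit+ to Kit+D. The cause of count changes was not tested. With only the groups compared in the fit, fewer arrays gave 1 call for Kit+J against Kit+, 1 for Kit+D against Kit+ and 0 for Kit+J against Kit+D. Array weights gave 3 for Kit-D against Kit- and 1 for the difference on OP9-Jag1. Housekeeping scaling gave 1 for Kit+J against Kit+, and moved the median of all genes by -0.169 for Kit+ against Kit-, 0.193 for Kit+D against Kit+, -0.154 for Kit+J against Kit-J, and 0.123 and -0.138 for the ligand and OP9-Dll4 differences. A second quantile normalization gave 4 for Kit+D against Kit+. Removing dim genes, or taking the mean of probe sets, gave 1 for the ligand difference. With the replicate number as a fixed block the counts were 3 for Kit-J against Kit- and 1 for the difference on OP9-Jag1, and as a random block 1 for the latter; no other count moved by over 1.5 times under either block. Without the 3 OP9-Dll4 arrays that stood apart, a choice made after seeing the data, there was 1 call for Kit+J against Kit+, 1 for Kit+D against Kit+, 6 for Kit+D against Kit-D and 1 for the difference on OP9-Jag1.

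Leaving out each array in turn gave 9 to 15 calls for Kit+ against Kit-, 2 to 7 for Kit-J against Kit-, 0 to 1 for Kit-D against Kit-, 0 to 1 for Kit+J against Kit+, 1 to 8 for Kit+D against Kit+, 7 to 16 for Kit-J against Kit-D, 0 to 7 for Kit+J against Kit+D, 0 to 2 for Kit+J against Kit-J, 9 to 12 for Kit+D against Kit-D, 0 to 4 for the ligand difference, 1 to 3 for the OP9-Jag1 difference, 0 for the OP9-Dll4 difference and 16 to 25 for any difference among the groups. With 2 or 3 arrays a group, changes well under 2-fold were often not detectable.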
